A study of Mus musculus with 12 samples.

Results

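The comparison described here sets primary mouse cortical neurons that received a short hairpin RNA against Adar (group shAdar1, 2 biological replicates) against neurons that received the first of a pair of control hairpins (group shControl1, 2 biological replicates). All 4 samples belong to a series of 10 samples in 5 groups, sequenced as 12 libraries. The other groups carry a second control hairpin (shControl2), a hairpin against Adarb1 (shAdar2) and a hairpin against Zfr (shZfr). Both groups compared were C57BL/6J neurons dissociated from cortices at E16.5, seeded on poly-L-lysine, infected with pGreenPuro lentivirus on the following day and collected on day 7 after dissection, so virus, backbone and time in culture were shared, and the groups differed in the hairpin. Each target had 1 hairpin in this series, so an effect of lowering Adar cannot be told apart from an effect of that hairpin's sequence. The series' design text names this pair as the one meant to show which editing sites ADAR1 controls, and it sets shControl2 against shZfr. The labels give no preparation date or batch, so a difference between shControl2 or shZfr and the other 3 groups cannot be told apart from one in preparation. The comparison covers 14785 genes of 23955 listed, those that passed a filter on low counts, and 3879 editing sites of 46689 listed in any library, those with at least 20 reads in each of the 4 samples. Expected counts were 22785911 and 27005610 in shAdar1 and 24545963 and 29671858 in shControl1, and the listed sites were covered by 535077 and 600316 reads in shAdar1 and by 498000 and 565076 reads in shControl1.

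ADAR enzymes bind double-stranded RNA and turn adenosine into inosine, which sequencing reads as guanosine. The share of reads with G among those with A or G at a site is therefore its editing level. Adar encodes ADAR1, which in mammals edits mostly the long duplexes formed by inverted repeats, many sites to a duplex, and loss of ADAR1 editing is known to let cellular duplexes be sensed as viral RNA. Adarb1 encodes ADAR2, which is abundant in brain and recodes transcripts of glutamate receptor subunits. Adarb2 encodes a brain-specific family member with no known catalytic activity.

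The markers fixed for the labelled cell type were present. Summed levels of the 14 neuronal markers were 8294 and 7002 TPM in shAdar1, against 7265 and 7391 TPM in shControl1 (a unit scaled by transcript length), and none of them was at 0 in either group. Astrocyte and radial glia markers, 26 in all, summed to 4331 and 8445 TPM in shAdar1, against 3589 and 2796 TPM in shControl1, so the cultures were not neurons alone. Oligodendrocyte lineage markers (18) summed to 169.8 and 469 TPM in shAdar1, against 155 and 108 TPM in shControl1, and markers of cycling cells (27) to 379.7 and 851 TPM in shAdar1, against 381 and 343 TPM in shControl1. In these 3 lists shAdar1 replicate 2 was the highest of the 4 samples. The 16 microglial markers summed to 15.5 and 21.8 TPM in shAdar1, against 34.7 and 28.6 TPM in shControl1, with Tmem119, C1qa and C1qb at 0 in shAdar1 and none at 0 in shControl1, and the 21 endothelial, mural and fibroblast markers summed to 90.2 and 80.4 TPM in shAdar1, against 77.2 and 82.2 TPM in shControl1. Among astrocyte markers Gjb6 was at 0 in shAdar1, and among oligodendrocyte markers Mag was at 0 in shAdar1 and Mobp in shControl1. In bulk RNA, fewer cells of a type and less RNA per cell cannot be told apart.

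Adar, the targeted gene, was lower in both shAdar1 samples. It stood at 55.0 and 51.5 CPM in shAdar1, against 153 and 192 CPM in shControl1 (CPM, TMM-scaled counts relative to library size). The shAdar1 values lay far below those of shControl1 and close to each other. On average Adar was at 53.3 ± 2.43 CPM in shAdar1 and 172 ± 27.6 CPM in shControl1 (SD, n = 2 each), which left 30.9% (log2 fold change −1.69 ± 0.13 SE, adjusted p = 0.000341 by edgeR's quasi-likelihood test over all 14785 genes), and Adar was at 139 and 118 CPM in shControl2. The other deaminase, Adarb1, was at 118 and 94.9 CPM in shAdar1, against 122 and 118 CPM in shControl1. The shAdar1 and shControl1 values nearly touched, and it did not pass the test (log2 fold change −0.18 ± 0.12 SE, adjusted p = 0.344). Adarb2 was at 41.5 and 64.6 CPM in shAdar1, against 65.1 and 50.5 CPM in shControl1, with the groups overlapping (log2 fold change −0.12 ± 0.26 SE, adjusted p = 0.786). Zfr, the target of another hairpin in the series, was at 323 and 291 CPM in shAdar1, against 289.9 and 268 CPM in shControl1 and did not pass the test either (log2 fold change 0.14 ± 0.11 SE, adjusted p = 0.437). Against shControl2, at 422 and 496 CPM, Zfr passed lower in shAdar1 (log2 fold change −0.58 ± 0.11 SE, adjusted p = 0.00415). In the neurons that carried the hairpin against Adarb1, Adar was at 207 and 188 CPM and Adarb1 at 48.4 and 52.0 CPM. Adarb1 was similarly low in shZfr, at 49.2 and 45.5 CPM. Zfr was at 179 and 197 CPM in shAdar2 and at 173 and 173 CPM in shZfr.

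**Figure D1:**
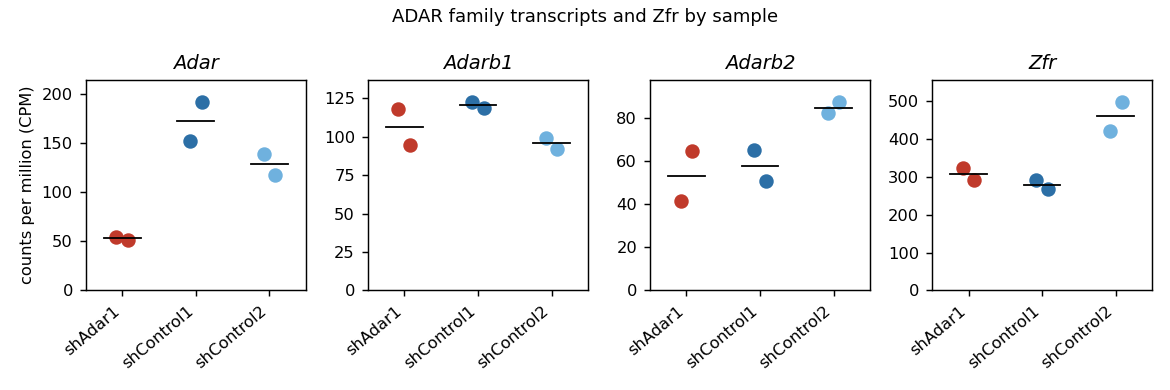
CPM of Adar, Adarb1, Adarb2 and Zfr in each sample of shAdar1, shControl1 and shControl2 (points, 2 samples a group; the bar is the mean; each panel has its own axis from 0). Adar lies at 55.0 and 51.5 CPM in shAdar1, below every control sample, whereas the Adarb2 values of shAdar1 and shControl1 overlap.

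Editing was lower in shAdar1 than in shControl1 over the sites as a whole. The mean level over all 3879 member sites was 2.28% and 1.97% in shAdar1, against 4.78% and 4.79% in shControl1. The shAdar1 samples did not overlap the shControl1 samples, and the group means, 2.12% ± 0.218 and 4.79% ± 0.00202 (SD, n = 2 each), put shAdar1 at 44.4% of shControl1. An exact two-sided permutation test of 2 samples against 2 gave p = 0.333, the smallest it can give. In the other groups the same mean was 3.21% and 3.05% in shControl2, 2.99% and 2.86% in shAdar2 and 2.13% and 2.01% in shZfr, over those of the sites that had reads there, so the shZfr mean was close to that of shAdar1. With all reads pooled, which weights sites by depth, the shares were 3.95% and 3.10% in shAdar1 and 4.64% and 5.42% in shControl1, or 70.0% of the shControl1 share. A single site held 40337 reads of that pool, and without it the pooled shAdar1 share was 62.8% of the shControl1 share.

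Most member sites showed little editing in any of the 4 samples. No edited read was found at 2076 of them and 1 to 4 at 913, while none had fewer than 5 unedited reads. That left 890 sites, in 345 clusters of sites at most 10 kb apart, with at least 5 edited and 5 unedited reads for a test. Since a site edited in shControl1 alone can enter through that group, counts over the tested sites do not describe the sites left out. At the sites with 1 to 4 edited reads, those reads numbered 251 and 269 in shAdar1 and 545 and 634 in shControl1, which is 0.371% and 0.350% of the reads there in shAdar1 and 0.813% and 0.876% in shControl1. An edited read was seen at 1154 member sites in shAdar1 and at 1612 in shControl1.

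Of the 890 tested sites, 299 fell in shAdar1 (33.6%) and 3 rose (0.337%) at an adjusted p under 0.05 by edgeR's quasi-likelihood test on edited and unedited reads. The sites that fell lay in 179 clusters. Their median change was −18.8 percentage points (quartiles −28.5 and −11.3), and the median site kept 5.77% of its shControl1 level, with quartiles of 0% and 17.5%. At 116 of them neither shAdar1 sample held an edited read. Sites that pass are chosen for a clear fall in these same samples, so these sizes do not describe the tested sites as a whole. Over all 890 tested sites the mean level in shAdar1 was 44.8% of that in shControl1. Without regard to the test, both shAdar1 levels lay below both shControl1 levels at 592 tested sites (66.5%) and above them at 32 (3.6%), and the groups overlapped at 266. Of the 588 sites that did not pass, 480 had a lower mean level in shAdar1, with a median difference of −4.06 points. A tested site had a median of 39 reads a sample, which limits what a single site can show. With shControl2 in place of shControl1, 135 sites passed lower and 4 higher. The sites tested there were chosen by reads in shAdar1 and shControl2, so they are not the same set. Without shAdar1 replicate 2 the number of sites that passed lower was 35, against 166 without shAdar1 replicate 1 and 168 and 170 without shControl1 replicates 2 and 1.

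The part of editing that was left differed with the level in shControl1. Among the 161 tested sites under 5% in shControl1, the mean level was 2.62% and 2.11% in shAdar1, against 2.61% and 2.91% in shControl1. There the samples of the groups overlapped. At the 162 sites between 20% and 40% in shControl1 it was 10.9% and 9.71% in shAdar1, against 28.1% and 28.1% in shControl1, which left 36.7%, the lowest remainder of the 7 ranges. Above 80% in shControl1, at 15 sites, it was 60.5% and 54.6% in shAdar1, against 88.8% and 88.0% in shControl1, which left 65.1%. The share of sites that passed lower was 11.2% in the range under 5%, 36.9% between 10% and 20%, 59.6% between 40% and 60% and 53.3% above 80%. Since the ranges are set by shControl1 values and a site chosen for a high or low value there tends back toward its own mean, the remainders are a description. At 50% or more in shControl1 there were 80 tested sites, of which 47 passed lower. In shAdar1 29 tested sites reached 50%. Of sites with 20 to 29 reads in their shallowest sample 33.3% passed lower, and of those with at least 100 reads 31.2%. The mean shControl1 level was 21.5% in the former and 11.8% in the latter, so depth and level were not separated. On each of the 20 chromosomes with 10 or more tested sites the mean level was lower in shAdar1, at 18.3% to 64.2% of that in shControl1.

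**Figure D2:**
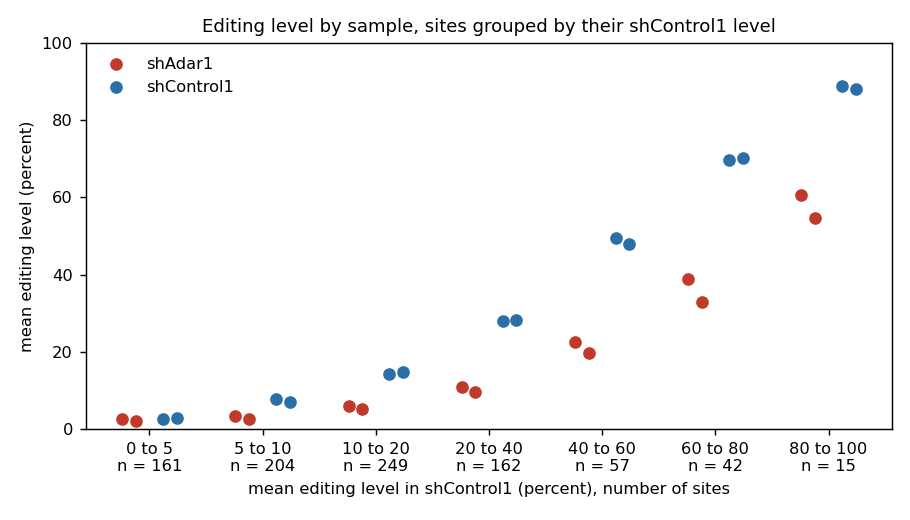
Mean editing level in percent (vertical axis) of the tested sites in each sample, by the range of the site's mean level in shControl1 (horizontal axis, with the number of sites); red points are the 2 shAdar1 samples and blue points the 2 shControl1 samples. In the 6 ranges above 5% both shAdar1 points lie below both shControl1 points, and at 80 to 100% they lie at 60.5% and 54.6%.

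The largest falls in points were at sites edited in most of their shControl1 reads, as a fall of that size requires. The 8 sites with the largest fall in points, no more than 1 per cluster, are named by their mm9 position, and they were not assigned to genes here because no mm9 annotation was at hand. The site chr17:24315298 stood at 0% and 4.17% in shAdar1 (22 and 24 reads), against 70.0% and 82.4% in shControl1 (30 and 34 reads). No shAdar1 value came near a shControl1 value there (−74.1 points, adjusted p = 2.82e-05), and 0 of 22 reads in shAdar1 replicate 1 allows a level of up to 13.6%, counting error only. At chr3:96436383 the levels were 2.44% and 0% in shAdar1 (41 and 30 reads), against 75% and 75% in shControl1 (32 and 36 reads), a change of −73.8 points, adjusted p = 9.30e-06. At chr11:116442451 they were 4.00% and 0% in shAdar1 (25 and 32 reads), against 70.9% and 78.0% in shControl1 (55 and 59 reads), a change of −72.4 points, adjusted p = 9.30e-06. In both, the pair of shAdar1 samples together held 1 edited read. A pair of sites on chromosome 14, in separate clusters, kept more. The first, chr14:125016066, was at 15.2% and 13.5% in shAdar1 (33 and 37 reads), against 87.0% and 83.6% in shControl1 (46 and 55 reads) (−71.0 points, adjusted p = 9.30e-06). The second, chr14:124885339, was at 32.3% and 20.5% in shAdar1 (31 and 39 reads), against 93.1% and 95.8% in shControl1 (29 and 48 reads) (−68.1 points, adjusted p = 1.11e-05), the highest remaining level of the 8. The deepest of the 8 was chr5:125936975, at 7.06% and 3.74% in shAdar1 (85 and 107 reads), against 73.3% and 71.1% in shControl1 (105 and 76 reads) (−66.8 points, adjusted p = 2.22e-06). The other two, chr15:98567543 and chr12:110960985, changed by −66.1 points, adjusted p = 9.35e-06 and by −64.7 points, adjusted p = 2.82e-05. All 8 calls held with any 1 of the 4 samples left out. Against shControl2, chr15:98567543 was not tested, as one shControl2 sample had 17 reads there, and the other 7 passed the test lower as well, at adjusted p of at most 9.29e-06.

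Some highly edited sites kept nearly the same level. Of the tested sites at 50% or more in shControl1, the 6 with the smallest change were taken, and the clearest by depth was chr3:80510834, at 98.8% and 97.4% in shAdar1 (425 and 496 reads), against 98.0% and 99.04% in shControl1 (398 and 418 reads). All 4 values lay within 2 points of each other (−0.415 points, adjusted p = 0.673), and shControl2 stood at 98.1% and 97.6%. In shAdar2 the same site was at 83.3% and 94.3% and in shZfr at 91.1% and 93.8%. The other 5 had 20 to 36 reads a sample, and their groups overlapped. Among them chr2:37529895 was at 42.4% and 62.5% in shAdar1 (33 and 24 reads), against 60% and 44.4% in shControl1 (35 and 36 reads) (0.240 points, adjusted p = 0.955), and chr2:4040112 at 77.1% and 72.7% in shAdar1 (35 and 22 reads), against 84.0% and 66.7% in shControl1 (25 and 30 reads) (−0.398 points, adjusted p = 0.962). The remaining 3, chr7:6919225, chr14:40020995 and chr16:6560139, changed by −2.38, 2.59 and 3.62 points, with adjusted p of 0.868, 0.919 and 0.803. A p above the threshold at 20 to 36 reads does not show that these levels were equal. In shAdar2 replicate 1, the deeper of the 2 samples there, the 5 sites were at 17.9%, 28.0%, 22.2%, 68.8% and 30.0%, in the order named and with 10 to 28 reads each. In shZfr they were at 10.8% and 15.0%, 50.0% and 40%, 0% and 21.4%, 52.2% and 45.3% and 28.2% and 31.4%, also low at several of them, and in shControl2 at 44.0% and 19.0%, 84.6% and 82.6%, 31.0% and 64.5%, 74.3% and 77.1% and 41.7% and 56.1%.

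The most deeply read sites, where counting error is smallest, were mostly edited little. The deepest, chr17:39980697, was at 23.6% and 15.9% in shAdar1 (10406 and 12428 reads), against 16.6% and 22.2% in shControl1 (8030 and 9473 reads). The replicates differed by more than the groups did (0.325 points, adjusted p = 0.974). The next deepest, chr12:110797222, had levels of at most 0.316% in all 4 samples, chr3:80510936 of at most 0.417% and chr1:94951523 of at most 1.80%, and none of these passed the test (adjusted p of 0.165, 0.863 and 0.652). The exception was chr3:80496208, at 55.8% and 43.2% in shAdar1 (548 and 657 reads), against 68.7% and 73.0% in shControl1 (514 and 549 reads). Both shAdar1 values lay below both shControl1 values and the site passed the test (−21.3 points, adjusted p = 0.00730), but shControl2 stood at 51.7% and 40.7%, overlapping the shAdar1 values, and the test against it did not pass (adjusted p = 0.792). The call was also lost without shAdar1 replicate 2 (−15.0 points, adjusted p = 0.112), without shControl1 replicate 1 (−23.5 points, adjusted p = 0.0569) and without shControl1 replicate 2 (−19.1 points, adjusted p = 0.0656). In shAdar2 it was at 21.2% and 17.3% and in shZfr at 20.7% and 20.99%.

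An increase passed the test at 3 sites, all at under 2% in shControl1. At chr2:29767553 the levels were 14.3% and 11.8% in shAdar1 (28 and 34 reads), against 0% and 0% in shControl1 (22 and 27 reads). No edited read was seen in shControl1 (13.0 points, adjusted p = 0.0280), and shControl2 also had none in 61 reads, against which the site passed too (adjusted p = 0.0165). A level of 0 in 49 reads of shControl1 allows up to 6.12%. At chr2:157383896 they were 17.9% and 4.35% in shAdar1 (56 and 46 reads), against 1.52% and 1.52% in shControl1 (66 and 66 reads), so that shAdar1 replicate 1 carried most of the difference (9.59 points, adjusted p = 0.0331). At chrX:147420046 they were 1.14% and 2.09% in shAdar1 (176 and 191 reads), against 0% and 0% in shControl1 (201 and 176 reads) (1.62 points, adjusted p = 0.0491), a change of under 2 points at a deep site. Neither of these sites passed against shControl2, where they stood at 6.82% and 4.76% (adjusted p = 0.518) and at 0% and 1.49% (adjusted p = 0.618). With 1 sample left out the 3 sites could be tested in 2 or 3 of the 4 ways, since a site can then fall short of 5 edited reads, and they passed in none of them (adjusted p 0.0540 to 0.221).

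Most clusters with several tested sites held both sites that passed lower and sites that did not. Differences between neighbouring sites were not tested, and a site that did not pass may still have fallen. Reads of the member sites were pooled by cluster, and 180 of 362 clusters fell (49.7%) and 1 rose (0.276%), this one around chr2:29767553. Of the 90 clusters with at least 3 tested sites, 2 had all of them pass lower, 68 had some and 20 had none. The cluster with the most sites that fell, 7 of 8 tested, spans chr6:85905314-85908394, and its pooled level was 2.88% and 2.44% in shAdar1, against 13.5% and 11.5% in shControl1 (adjusted p = 1.48e-12). Its highest site in shControl1, chr6:85908368, was at 10.7% and 28.1% in shAdar1 (28 and 32 reads), against 54.9% and 61.3% in shControl1 (51 and 31 reads) (−38.7 points, adjusted p = 0.00581), while shControl2 was at 46.3% and 21.2% there. The pooled level of the cluster in shControl2 was 5.05% and 3.17%. Of its sites, 6 could be tested against shControl2 and 0 passed (adjusted p 0.263 to 0.819), and none of the 7 calls against shControl1 held in all 4 fits with 1 sample left out. On chromosome X the cluster chrX:147419161-147420103 held 11 tested sites at up to 233 reads a sample. Its most edited sites nearly lost editing: chrX:147419161 was at 0.980% and 0% in shAdar1 (102 and 106 reads), against 35% and 35.4% in shControl1 (80 and 82 reads) (−34.7 points, adjusted p = 1.11e-05), and chrX:147420072 at 0.490% and 1.38% in shAdar1 (204 and 218 reads), against 28.1% and 26.9% in shControl1 (217 and 219 reads) (−26.6 points, adjusted p = 9.30e-06). In the same stretch chrX:147420046 is one of the 3 sites called higher. The chromosome 17 cluster, chr17:63401967-63403744, held a pair of adjacent positions of which only 1 passed. There chr17:63402091 was at 7.69% and 3.45% in shAdar1 (39 and 29 reads), against 63.6% and 62.5% in shControl1 (22 and 32 reads) (−57.5 points, adjusted p = 0.000107), whereas its neighbour chr17:63402090 was at 8.33% and 27.3% in shAdar1 (36 and 33 reads), against 17.4% and 29.03% in shControl1 (23 and 31 reads), with the groups overlapping (−5.41 points, adjusted p = 0.574). The clusters chr9:21485746-21487527 and chr18:24118842-24123901 had 6 of 7 and 6 of 22 tested sites fall. Pooled levels were 4.86% and 5.81% in shAdar1, against 18.3% and 18.5% in shControl1 in the first and 0.342% and 0.375% in shAdar1, against 0.914% and 1.34% in shControl1 in the second. With 1 sample left out, none of the calls in the chromosome 9 cluster held in all 4 fits, and the 6 on chromosome 18 held in none. Against shControl2 no site of either cluster passed, of 4 and 15 tested.

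With the hairpin against Adarb1, levels lay above those of shControl2 at the sites that fell in shAdar1 and below them at the sites that did not pass. At the 299 sites that fell the mean level was 5.57% and 4.97% in shAdar1 and 27.1% and 28.2% in shControl1, the values that chose them. It was 20.8% and 17.4% in shAdar2 and 13.6% and 13.3% in shZfr, against 17.2% and 16.2% in shControl2. The shAdar2 and shControl2 samples played no part in choosing these sites. At the 588 sites that did not pass it was 11.1% and 9.55% in shAdar1 and 15.5% and 14.8% in shControl1. There it was 7.16% and 7.75% in shAdar2 and 6.05% and 5.64% in shZfr, against 10.7% and 10.3% in shControl2. Here the shAdar2 values lay below those of shControl2. Compared with shControl1, the shAdar2 values were lower in both sets of sites. The shAdar1 and shControl1 values split the sets, so a comparison of shAdar2 with those groups carries that choice. Replicate 2 of shAdar2 is shallow, with 110255 reads over all listed sites, and its means cover sites with few reads. The difference between the 2 sets of sites was not tested.

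**Figure D3:**
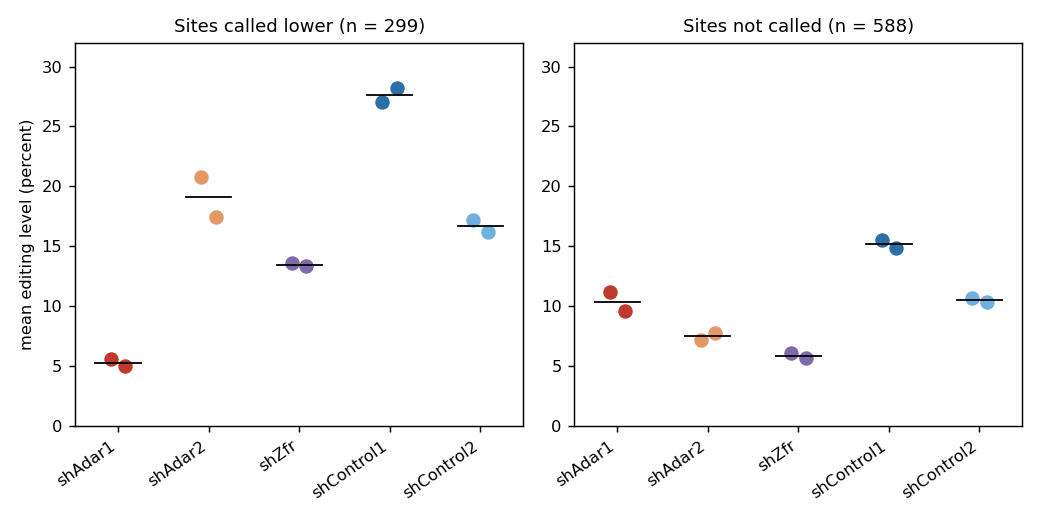
Mean editing level in percent (vertical axis, from 0) over the 299 sites called lower in shAdar1 against shControl1 (left) and the 588 tested sites not called (right), by sample in the 5 groups (points, 2 samples a group; the bar is the mean). The choice of sites used the shAdar1 and shControl1 values; shAdar2 lies at 20.8% and 17.4% on the left and at 7.16% and 7.75% on the right.

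Expression changed widely between these samples, but much of it did not hold against the second control hairpin. Of 14785 genes tested, 1380 rose (9.33%) and 1020 fell (6.9%) in shAdar1, so 16.2% passed the test in either direction, and 469 of those that rose and 311 of those that fell did so by at least 2-fold. Against shControl2, with the same shAdar1 samples, 2860 rose (19.3%) and 2049 fell (13.9%). The design text does not set shAdar1 against shControl2. A total of 568 genes passed in the same direction against both controls, 274 higher (1.85%) and 294 lower (1.99%), which is 23.7% of the calls against shControl1 and 11.6% of those against shControl2. Another 404 passed in opposite directions. With both controls pooled as 1 group, 5 genes passed in all. With 1 sample left out, in the order shAdar1 replicate 1, shAdar1 replicate 2, shControl1 replicate 1 and shControl1 replicate 2, 900, 746, 917 and 493 genes rose and 501, 319, 640 and 291 fell. The 2 shZfr samples, which entered the fit through the shared estimate of spread, differed by 2.37 times counting noise (chi-square over degrees of freedom), against 28.0 to 61.0 times in the other groups. With shZfr left out of the fit, 811 genes rose and 613 fell, and with shAdar1 and shControl1 alone 910 rose and 783 fell. In what follows, values in brackets after a gene's CPM are its log2 fold change with its standard error and adjusted p against shControl1, or against shControl2 where they follow its values. Likewise, 5 counts of list members in a row are those without each of the 4 samples, in the order given, and without shZfr. Of the genes named here as changed, 13 did not pass without shZfr, with adjusted p of 0.05005 to 0.0910: Hist1h2bh, Arhgap28, Hist1h2bm, Hist1h2bk, Fst, Ube2l6, Cmpk2, Dgcr8, Ago1, Bdnf, Nefm, Oas1c and Tnrc6a.

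Among genes that fell against both controls, with no shAdar1 sample inside the range of the 4 control samples, the 10 with the largest fall against shControl1 belong to different families. The falls were not all particular to shAdar1. In shAdar2 all 10 but Polk also averaged below both control means, and in shZfr Gabrq, Cyp1b1, Dgkk and Lipo1 did. Dgkk, for example, averaged 10.1 CPM in shAdar2 and 10.4 CPM in shZfr, and Polk 28.5 and 38.0 CPM. Car10, a carbonic anhydrase relative without enzyme activity that binds neurexins, fell to 2.96 and 3.69 CPM in shAdar1, against 19.1 and 31.2 CPM in shControl1 (−2.92 ± 0.29 SE, adjusted p = 0.000690), with 7.40 and 6.80 CPM in shControl2. Gabrq, the theta subunit of GABA-A receptors, was at 1.78 and 0.774 CPM in shAdar1, against 6.49 and 6.28 CPM in shControl1 (−2.34 ± 0.40 SE, adjusted p = 0.00560), and 8.06 and 8.40 CPM in shControl2. Cyp1b1, a cytochrome P450, was at 1.28 and 1.29 CPM in shAdar1, against 6.19 and 6.73 CPM in shControl1 (−2.33 ± 0.30 SE, adjusted p = 0.00165). All of these were low in shAdar1, at a few CPM. Polk, a translesion DNA polymerase, was at 9.70 and 11.5 CPM in shAdar1, against 38.9 and 51.9 CPM in shControl1 (−2.10 ± 0.17 SE, adjusted p = 0.000341), and the locus A730017C20Rik at 8.20 and 6.12 CPM in shAdar1, against 25.1 and 37.9 CPM in shControl1 (−2.14 ± 0.31 SE, adjusted p = 0.00276). Hmgcll1, an enzyme that splits HMG-CoA, was at 9.98 and 9.77 CPM in shAdar1, against 33.9 and 35.8 CPM in shControl1 (−1.82 ± 0.16 SE, adjusted p = 0.000442), with 42.6 and 50.1 CPM in shControl2. Dgkk, a diacylglycerol kinase, was at 8.06 and 7.67 CPM in shAdar1, against 22.1 and 29.1 CPM in shControl1 (−1.71 ± 0.16 SE, adjusted p = 0.000647), with 46.7 and 54.3 CPM in shControl2. For Hmgcll1 and Dgkk the shControl2 samples lay even higher than the shControl1 samples. Olfm3, a secreted olfactomedin, changed by −1.88 ± 0.28 SE, adjusted p = 0.00336, Ano3, of the anoctamin family, by −1.80 ± 0.27 SE, adjusted p = 0.00328, and Lipo1, of a lipase family, by −1.70 ± 0.31 SE, adjusted p = 0.00693. In Car10, Cyp1b1, Polk, A730017C20Rik, Olfm3, Ano3 and Lipo1 the fall against shControl2 was smaller than against shControl1. In that order, their log2 fold changes against shControl2 were −1.09, −1.37, −0.68, −0.90, −0.82, −1.34 and −1.27. The shControl2 samples were at 16.8 and 17.3 CPM for Polk and at 12.4 and 14.2 CPM for A730017C20Rik. The calls of all 10 against shControl1 held with any 1 of the 4 samples left out.

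Histone genes made up 4 of the 10 largest increases that met the same conditions, and in each of them shAdar1 replicate 2 was far above replicate 1. Hist1h4a was at 26.7 and 56.4 CPM in shAdar1, against 18.6 and 11.6 CPM in shControl1 (1.47 ± 0.35 SE, adjusted p = 0.0209), Hist1h2bk at 14.6 and 35.1 CPM in shAdar1, against 9.92 and 6.18 CPM in shControl1 (1.63 ± 0.43 SE, adjusted p = 0.0332), Hist1h2bh at 5.10 and 17.7 CPM in shAdar1, against 3.38 and 2.61 CPM in shControl1 (1.93 ± 0.58 SE, adjusted p = 0.0490) and Hist1h2bm at 10.9 and 29.7 CPM in shAdar1, against 8.19 and 3.67 CPM in shControl1 (1.79 ± 0.53 SE, adjusted p = 0.0476). Histone genes of a class are nearly identical in sequence, so how reads were shared among them is uncertain. Apart from Mt3, the other genes were steadier between replicates. Cbx6, a chromobox protein of Polycomb complexes, was at 182 and 173 CPM in shAdar1, against 71.5 and 53.7 CPM in shControl1 (1.505 ± 0.17 SE, adjusted p = 0.000977). Cacna1g, a T-type calcium channel subunit, was at 123 and 86.4 CPM in shAdar1, against 37.9 and 34.2 CPM in shControl1 (1.54 ± 0.17 SE, adjusted p = 0.000895), with 79.9 and 69.4 CPM in shControl2. Colgalt2, a collagen galactosyltransferase, was at 15.5 and 10.7 CPM in shAdar1, against 4.65 and 3.70 CPM in shControl1 (1.65 ± 0.24 SE, adjusted p = 0.00267). Arhgap28, a GTPase-activating protein, was at 30.5 and 25.3 CPM in shAdar1, against 8.07 and 6.60 CPM in shControl1 (1.93 ± 0.55 SE, adjusted p = 0.0417), L3mbtl4, with MBT domains, changed by 1.60 ± 0.33 SE, adjusted p = 0.0119, and Mt3 is described with the other metallothioneins. In shAdar2 Cacna1g, Colgalt2 and Cbx6 averaged 146, 11.3 and 157 CPM, and in shZfr 115, 11.2 and 71.6 CPM. Arhgap28 and L3mbtl4 averaged 6.02 and 4.60 CPM in shAdar2 and 10.4 and 1.38 CPM in shZfr. Calls of Cbx6, Cacna1g and Colgalt2 held with any 1 sample left out. Calls were lost for Hist1h4a without shAdar1 replicate 2 or shControl1 replicate 2 (0.83 to 1.16, adjusted p 0.149 to 0.159), for Hist1h2bk without shAdar1 replicate 2, shControl1 replicate 1 or shControl1 replicate 2 (0.86 to 2.01, adjusted p 0.0655 to 0.249), for Hist1h2bh without shAdar1 replicate 2, shControl1 replicate 1 or shControl1 replicate 2 (0.77 to 2.13, adjusted p 0.138 to 0.428) and for Hist1h2bm without shAdar1 replicate 2, shControl1 replicate 1 or shControl1 replicate 2 (0.88 to 2.47, adjusted p 0.0550 to 0.354). That of L3mbtl4 was lost without shControl1 replicate 2 (1.48, adjusted p = 0.0971), and that of Arhgap28 without any 1 of the 4 samples (1.76 to 2.08, adjusted p 0.102 to 0.219).

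**Figure D4:**
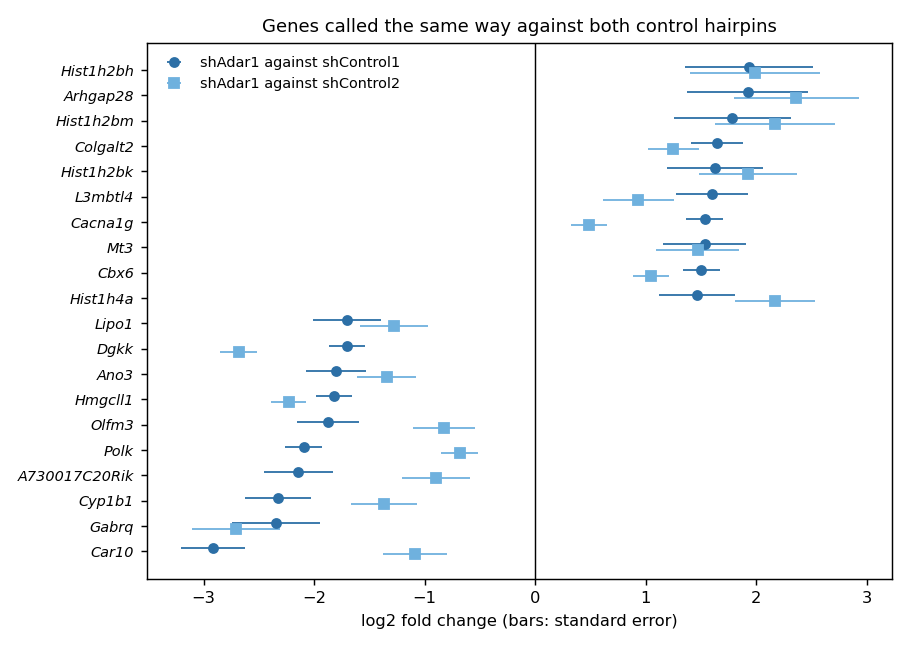
Log2 fold change of the 20 genes with the largest changes among those called the same way against both control hairpins and with no overlap with the 4 control samples, for shAdar1 against shControl1 (dark circles) and against shControl2 (light squares); bars are standard errors from edgeR. Every point of a gene lies on 1 side of 0 because the genes were chosen so, with Car10 lowest at −2.92 against shControl1.

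The largest changes against shControl1, with no condition on shControl2, included genes for which shControl2 stood near shAdar1. Ttn, which encodes the giant muscle protein titin, was at 14.4 and 9.07 CPM in shAdar1, against 79.5 and 127 CPM in shControl1 (−3.14 ± 0.36 SE, adjusted p = 0.000978), with 18.3 and 17.3 CPM in shControl2. Slc40a1, the iron exporter ferroportin, was at 1.05 and 0.995 CPM in shAdar1, against 6.92 and 24.3 CPM in shControl1 (−3.93 ± 0.69 SE, adjusted p = 0.00626), with 2.19 and 2.79 CPM in shControl2. Dock5, a guanine nucleotide exchange factor, was at 2.69 and 2.80 CPM in shAdar1, against 13.4 and 36.0 CPM in shControl1 (−3.17 ± 0.41 SE, adjusted p = 0.00170), and Wif1, a secreted Wnt inhibitor, at 1.09 and 1.22 CPM in shAdar1, against 4.42 and 18.8 CPM in shControl1 (−3.32 ± 0.65 SE, adjusted p = 0.0101). In shControl2, Dock5 was at 5.73 and 5.11 CPM and Wif1 at 0.429 and 0.776 CPM. In Slc40a1, Dock5 and Wif1, shControl1 replicate 2 was well above replicate 1, and Wif1 lost its call without shAdar1 replicate 1, shAdar1 replicate 2 or shControl1 replicate 2 (−3.40 to −1.93, adjusted p 0.0575 to 0.0969). On the rising side Psap, prosaposin, the precursor of lysosomal saposins, was at 471 and 498 CPM in shAdar1, against 79.5 and 69.8 CPM in shControl1 (2.70 ± 0.13 SE, adjusted p = 4.43e-05), and 512 and 451 CPM in shControl2. The shControl2 samples lay on both sides of shAdar1, and the test against shControl2 gave 0.011 ± 0.12 SE, adjusted p = 0.954. Psap was at 819 and 676 CPM in shAdar2 and at 270 and 270 CPM in shZfr. The low value was thus that of shControl1, the lowest of the 5 groups. Abca8a, an ABC transporter, was at 31.8 and 17.5 CPM in shAdar1, against 3.92 and 3.61 CPM in shControl1 (2.71 ± 0.27 SE, adjusted p = 0.000690), with 28.9 and 34.8 CPM in shControl2. Adamts18, a secreted metalloprotease, was at 9.52 and 7.30 CPM in shAdar1, against 1.61 and 1.03 CPM in shControl1 (2.67 ± 0.25 SE, adjusted p = 0.000504), though 18.2 and 17.8 CPM in shControl2 put the second control above shAdar1. Fst, follistatin, which binds activin, was at 51.5 and 29.5 CPM in shAdar1, against 3.34 and 5.64 CPM in shControl1 (3.16 ± 0.82 SE, adjusted p = 0.0310), with 13.4 and 10.8 CPM in shControl2. Hes5, a Notch target, was at 9.52 and 17.5 CPM in shAdar1, against 2.84 and 1.42 CPM in shControl1 (2.68 ± 0.52 SE, adjusted p = 0.00929), with 6.68 and 5.66 CPM in shControl2. Fst lost its call without any 1 of the 4 samples (2.68 to 3.59, adjusted p 0.0588 to 0.155), and Hes5 without shAdar1 replicate 2 or shControl1 replicate 2 (2.17 to 2.25, adjusted p 0.0546 to 0.0858).

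**Figure D5:**
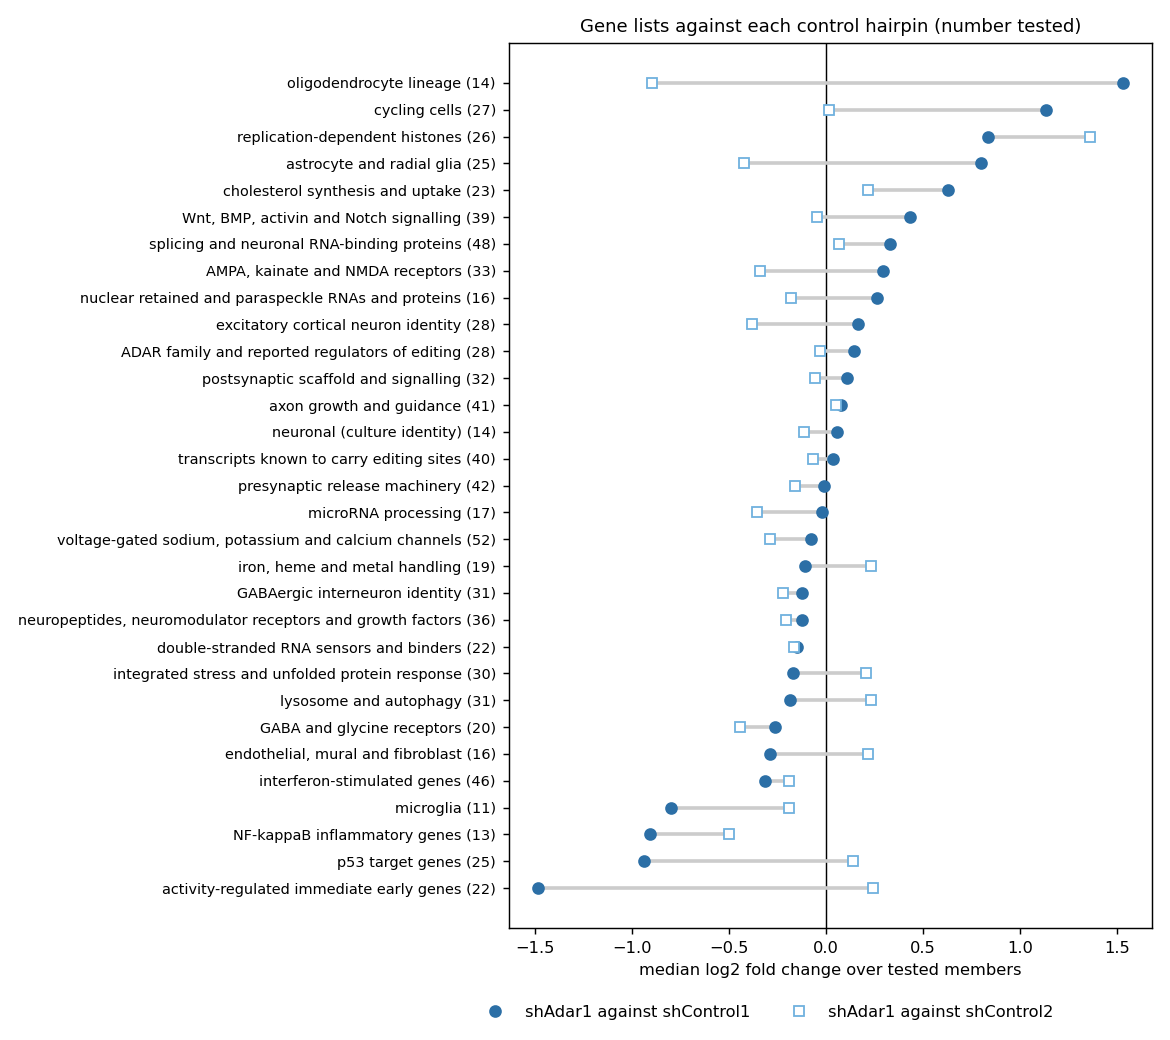
Median log2 fold change over the tested members of each of 31 gene lists (number tested in brackets) for shAdar1 against shControl1 (filled circles) and against shControl2 (open squares), ordered by the value against shControl1. The p53 target genes lie at −0.94 against shControl1 and at 0.14 against shControl2, and the histone list is above 0 against both.

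Among genes of the interferon response and of RNA sensing, 3 interferon-stimulated genes passed the test. Of 46 tested interferon-stimulated genes, 1 rose, 2 fell and 43 did not pass (6.52% called), with a median log2 fold change of −0.31, against 0.018 over all genes tested, of which, as given above, 16.2% were called, 9.33% higher and 6.9% lower. Shares of a list near these are not a result about the list. The 3 calls were Tap1, a peptide transporter of antigen presentation, at 2.87 and 3.65 CPM in shAdar1, against 6.11 and 7.50 CPM in shControl1 (−1.06 ± 0.22 SE, adjusted p = 0.0138), Ube2l6, the conjugating enzyme for ISG15, at −1.26 ± 0.36 SE, adjusted p = 0.0425, and Cmpk2, a mitochondrial nucleotide kinase, at 0.65 ± 0.19 SE, adjusted p = 0.0484. None of the 3 passed against shControl2, and calls were lost for Tap1 without shAdar1 replicate 1 or shControl1 replicate 2 (−0.92 to −0.90, adjusted p 0.0662 to 0.0929), for Ube2l6 without shAdar1 replicate 1, shAdar1 replicate 2 or shControl1 replicate 2 (−1.41 to −0.91, adjusted p 0.122 to 0.252) and for Cmpk2 without any 1 of the 4 samples (0.43 to 0.85, adjusted p 0.0501 to 0.273). The summed level of the 49 listed genes was 135 and 166 TPM in shAdar1, against 193 and 169 TPM in shControl1. Of 22 tested genes of double-stranded RNA sensors and binders, 1 rose, 2 fell and 19 did not pass (13.6% called), with a median log2 fold change of −0.15. The genes that fell were Adar itself and Oas1c, of the OAS family, with 2 and 6 expected counts in shAdar1, against 19 and 29 in shControl1 (−2.35 ± 0.68 SE, adjusted p = 0.0444), a call lost without any 1 of the 4 samples (−3.14 to −1.92, adjusted p 0.0968 to 0.199). Oas1a, Oas2 and Oas3 were listed at 0 TPM in both shAdar1 samples, and Oas1a also in both shControl1 samples. Of 13 tested NF-kappaB inflammatory genes, 0 rose, 1 fell and 12 did not pass (7.69% called), with a median log2 fold change of −0.91, and the gene that fell was Icam1, an adhesion molecule, at 0.592 and 0.479 CPM in shAdar1, against 3.07 and 2.45 CPM in shControl1 (−2.36 ± 0.55 SE, adjusted p = 0.0192), a call lost without any 1 of the 4 samples (−2.53 to −2.19, adjusted p 0.0659 to 0.116). In shControl2 it was below shAdar1 on average, at 0.573 and 0.137 CPM (0.59 ± 0.67 SE, adjusted p = 0.539). The interferon-stimulated genes called were 0, 0, 0, 0 and 0 higher and 0, 1, 2, 0 and 1 lower in the 5 alternative fits.

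Among transcripts known to carry editing sites, Htr2c fell and Azin1 rose against shControl1. Of 28 tested genes of the ADAR family and of reported regulators of editing, 5 rose, 2 fell and 21 did not pass (25% called), with a median log2 fold change of 0.15, Adar included. Of 40 tested transcripts known to carry editing sites, 4 rose, 4 fell and 32 did not pass (20% called), with a median log2 fold change of 0.035. Htr2c, a serotonin receptor whose transcript is edited at several sites in brain, was at 10.5 and 10.4 CPM in shAdar1, against 45.6 and 41.1 CPM in shControl1 (−2.05 ± 0.23 SE, adjusted p = 0.000977), with 13.2 and 11.1 CPM in shControl2, so shControl2 stood near shAdar1. Azin1, an antizyme inhibitor, was at 448 and 395 CPM in shAdar1, against 241 and 157 CPM in shControl1 (1.08 ± 0.20 SE, adjusted p = 0.00717), and 649 and 669 CPM in shControl2. Snhg11, a noncoding RNA of neurons, fell against both controls, at 376 and 392 CPM in shAdar1, against 597 and 914 CPM in shControl1 (−0.98 ± 0.21 SE, adjusted p = 0.0151) and 743 and 809 CPM in shControl2 (−1.02 ± 0.21 SE, adjusted p = 0.00614). It lost the call against shControl1 without shAdar1 replicate 1, shAdar1 replicate 2 or shControl1 replicate 2 (−1.004 to −0.64, adjusted p 0.0692 to 0.108). In the 5 alternative fits the genes called among edited transcripts were 2, 2, 1, 3 and 1 higher and 1, 1, 4, 1 and 3 lower, and in the regulators 1, 1, 2, 0 and 2 higher and 1, 1, 1, 1 and 2 lower.

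In microRNA silencing, Tnrc6b fell against both controls. Of 17 tested genes, 1 rose, 4 fell and 12 did not pass (29.4% called), with a median log2 fold change of −0.022. The 4 that fell were Tnrc6b and Tnrc6a, scaffold proteins that Argonaute recruits to silence its targets, Ago1, an Argonaute, and Lin28b, which blocks let-7 maturation. Tnrc6b was at 351 and 339 CPM in shAdar1, against 522 and 555 CPM in shControl1 (−0.64 ± 0.092 SE, adjusted p = 0.00270), with 651 and 696 CPM in shControl2. It lay below all control samples and its call held with any 1 sample left out. The fall was not particular to shAdar1. Tnrc6b was at 348 and 340 CPM in shAdar2 and at 450 and 445 CPM in shZfr, also below all control samples. Ago1 was at 142 and 141 CPM in shAdar1, against 183 and 197 CPM in shControl1 (−0.42 ± 0.11 SE, adjusted p = 0.0293), and lost its call without any 1 of the 4 samples (−0.47 to −0.37, adjusted p 0.0605 to 0.159). Tnrc6a changed by −0.41 ± 0.12 SE, adjusted p = 0.0434, a call lost without shAdar1 replicate 1, shAdar1 replicate 2 or shControl1 replicate 2 (−0.46 to −0.25, adjusted p 0.104 to 0.266). Against shControl2, Tnrc6b, Ago1 and Tnrc6a fell too, and 7 of the 17 did in all. Lin28b changed by −1.23 ± 0.30 SE, adjusted p = 0.0249, and Dgcr8, which binds the primary transcript for Drosha, rose by 0.43 ± 0.096 SE, adjusted p = 0.0174. Calls were lost for Lin28b without shAdar1 replicate 1, shAdar1 replicate 2 or shControl1 replicate 2 (−1.36 to −0.99, adjusted p 0.0875 to 0.164) and for Dgcr8 without shAdar1 replicate 1, shAdar1 replicate 2 or shControl1 replicate 2 (0.39 to 0.44, adjusted p 0.0541 to 0.101). Across the alternative fits 1, 1, 3, 1 and 2 genes of the list fell.

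Among receptors, the GABA-A receptor subunit genes Gabrb2 and Gabra4 fell against both controls. Of 20 tested GABA and glycine receptor genes, 1 rose, 3 fell and 16 did not pass (20% called), with a median log2 fold change of −0.26. Gabrb2, of the beta2 subunit, was at 248 and 236 CPM in shAdar1, against 381 and 366 CPM in shControl1 (−0.63 ± 0.099 SE, adjusted p = 0.00409), with 344 and 401 CPM in shControl2 (−0.62 ± 0.099 SE, adjusted p = 0.00174). Gabra4, of the alpha4 subunit, was at 47.7 and 48.4 CPM in shAdar1, against 78.1 and 85.0 CPM in shControl1 (−0.76 ± 0.13 SE, adjusted p = 0.00555), with 79.9 and 94.6 CPM in shControl2 (−0.86 ± 0.13 SE, adjusted p = 0.00134). In each of these genes both shAdar1 samples lay below all 4 control samples. Their calls held with any 1 sample left out. The falls were not particular to shAdar1. Gabrb2 was at 202 and 200 CPM in shAdar2 and at 269 and 274 CPM in shZfr. Gabra4 was at 59.2 and 48.4 CPM in shAdar2 and at 44.5 and 48.1 CPM in shZfr. All of these values also lay below the 4 control samples. Gabrg1, of a gamma subunit, was at 43.2 and 34.8 CPM in shAdar1, against 16.8 and 16.2 CPM in shControl1 (1.24 ± 0.16 SE, adjusted p = 0.00154), and 58.1 and 61.9 CPM in shControl2 put it between the controls. Gabrq, which was not on the list, fell against both as given above. Under these alternatives 4, 2, 2, 2 and 3 genes of the list fell. For glutamate receptor genes the counts differed with the control hairpin. Of 33 tested AMPA, kainate, NMDA and metabotropic receptor genes and their auxiliary subunits, 9 rose, 3 fell and 21 did not pass (36.4% called), with a median log2 fold change of 0.29 against shControl1, and 3 rose and 14 fell, with a median of −0.34, against shControl2. Cnih3, an AMPA receptor auxiliary subunit, was at 47.3 and 39.0 CPM in shAdar1, against 14.8 and 17.6 CPM in shControl1 (1.42 ± 0.15 SE, adjusted p = 0.000785), with 46.8 and 46.4 CPM in shControl2, and Grm5, a metabotropic receptor, at 584 and 563 CPM in shAdar1, against 408 and 344 CPM in shControl1 (0.61 ± 0.11 SE, adjusted p = 0.00802), with 1153 and 1299 CPM in shControl2. Grm5 lost its call without shControl1 replicate 2 (0.49, adjusted p = 0.0604). With these 5 fits 5, 4, 10, 1 and 6 of the glutamate receptor genes rose and 0, 1, 2, 0 and 2 fell.

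Among voltage-gated channels, the T-type calcium channel genes Cacna1g and Cacna1h rose against shControl1. Of 52 tested sodium, potassium and calcium channel genes, 6 rose, 10 fell and 36 did not pass (30.8% called), with a median log2 fold change of −0.075, and against shControl2 1 rose and 17 fell. Kcnh7, an ERG-type potassium channel, was at 45.5 and 42.3 CPM in shAdar1, against 70.9 and 97.0 CPM in shControl1 (−0.94 ± 0.14 SE, adjusted p = 0.00355), with 34.9 and 33.6 CPM in shControl2. Cacna1g is given above, and Cacna1h was at 144 and 119 CPM in shAdar1, against 71.1 and 79.0 CPM in shControl1 (0.81 ± 0.13 SE, adjusted p = 0.00367), with 115 and 95.6 CPM in shControl2. Both T-type genes held their calls with any 1 sample left out. Over the alternative fits 4, 5, 4, 3 and 3 channel genes rose and 5, 2, 8, 2 and 4 fell.

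At the presynapse, Slc17a6 and Cplx2 rose and Unc13c fell against shControl1. Of 42 tested genes of the release machinery, 7 rose, 3 fell and 32 did not pass (23.8% called), with a median log2 fold change of −0.012. Slc17a6, the vesicular glutamate transporter VGLUT2, was at 64.6 and 46.9 CPM in shAdar1, against 16.3 and 13.9 CPM in shControl1 (1.89 ± 0.19 SE, adjusted p = 0.000690), with 81.8 and 98.0 CPM in shControl2. Cplx2, a complexin, was at 347 and 351 CPM in shAdar1, against 215 and 164 CPM in shControl1 (0.88 ± 0.14 SE, adjusted p = 0.00415), with 650.2 and 549 CPM in shControl2. For both genes shAdar1 lay between the controls. Unc13c, a priming factor, was at 11.7 and 5.60 CPM in shAdar1, against 30.6 and 62.2 CPM in shControl1 (−2.44 ± 0.39 SE, adjusted p = 0.00442), with 13.4 and 13.6 CPM in shControl2. The members that fell against both controls were Pclo (−0.75 ± 0.14 SE, adjusted p = 0.00785) and Sv2b (−0.96 ± 0.19 SE, adjusted p = 0.00947), named after their values were seen, and calls against shControl1 were lost for Pclo without shControl1 replicate 2 (−0.60, adjusted p = 0.0588) and for Sv2b without shAdar1 replicate 2 or shControl1 replicate 2 (−0.81 to −0.73, adjusted p 0.0599 to 0.0768). Of 32 tested postsynaptic scaffold and signalling genes, 3 rose, 0 fell and 29 did not pass (9.38% called), with a median log2 fold change of 0.11, and Lrrtm1, an adhesion protein of excitatory synapses, was at 47.6 and 44.2 CPM in shAdar1, against 25.2 and 20.2 CPM in shControl1 (1.02 ± 0.12 SE, adjusted p = 0.00135), with 49.05 and 49.1 CPM in shControl2. In the 5 alternative fits 3, 5, 4, 3 and 4 presynaptic genes rose and 3, 2, 4, 1 and 3 fell, and 1, 3, 4, 1 and 2 postsynaptic genes rose.

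Most neuronal identity genes did not pass. Of 31 tested interneuron identity genes, 7 rose, 1 fell and 23 did not pass (25.8% called), with a median log2 fold change of −0.12, and of 28 tested excitatory neuron identity genes, 7 rose, 1 fell and 20 did not pass (28.6% called), with a median log2 fold change of 0.17. Gad1, which makes GABA, was at 181 and 272 CPM in shAdar1, against 83.5 and 82.1 CPM in shControl1 (1.45 ± 0.25 SE, adjusted p = 0.00599), a call lost without shControl1 replicate 2 (1.44, adjusted p = 0.0547). Calb2, calretinin, was at 30.8 and 29.1 CPM in shAdar1, against 8.38 and 1.64 CPM in shControl1 (2.60 ± 0.52 SE, adjusted p = 0.0109), where the control replicates differed more from each other than the shAdar1 samples did. Erbb4, the neuregulin receptor of interneurons, fell to 68.8 and 92.2 CPM in shAdar1, against 137 and 132 CPM in shControl1 (−0.74 ± 0.13 SE, adjusted p = 0.00658). Cux2, of upper cortical layers, was at 64.5 and 70.4 CPM in shAdar1, against 35.1 and 27.8 CPM in shControl1 (1.101 ± 0.14 SE, adjusted p = 0.00166), and rose against shControl2 too (0.56 ± 0.14 SE, adjusted p = 0.0138). Lmo4, a LIM-domain regulator, was at 293 and 216 CPM in shAdar1, against 113 and 97.2 CPM in shControl1 (1.27 ± 0.18 SE, adjusted p = 0.00246), with 258 and 258 CPM in shControl2. Of the neuronal markers that served to check the cultures, Tubb3, a neuronal tubulin, was at 1075 and 879 CPM in shAdar1, against 599 and 597 CPM in shControl1 (0.71 ± 0.12 SE, adjusted p = 0.00618), and Nefm, a neurofilament, at 51.3 and 40.6 CPM in shAdar1, against 62.3 and 126 CPM in shControl1 (−1.04 ± 0.28 SE, adjusted p = 0.0368). Both passed the same way against shControl2, and Nefm lost its call without shAdar1 replicate 1, shAdar1 replicate 2 or shControl1 replicate 2 (−1.24 to −0.44, adjusted p 0.0744 to 0.261). Of 41 tested axon growth and guidance genes, 9 rose, 6 fell and 26 did not pass (36.6% called), with a median log2 fold change of 0.080. Efnb2, an ephrin, was at 243 and 247 CPM in shAdar1, against 114 and 132 CPM in shControl1 (0.99 ± 0.099 SE, adjusted p = 0.000690), with 236 and 237 CPM in shControl2, and Cntn2, an adhesion protein of growing axons, at 106 and 91.8 CPM in shAdar1, against 56.3 and 40.6 CPM in shControl1 (1.03 ± 0.15 SE, adjusted p = 0.00299), with 72.4 and 67.3 CPM in shControl2. Of 36 tested neuropeptide, neuromodulator receptor and growth factor genes, 3 rose, 3 fell and 30 did not pass (16.7% called), with a median log2 fold change of −0.12, with Ntrk3, the receptor of neurotrophin-3, at 147 and 118 CPM in shAdar1, against 74.1 and 88.1 CPM in shControl1 (0.70 ± 0.12 SE, adjusted p = 0.00629). Across the alternative fits 7, 2, 6, 1 and 4 interneuron, 4, 5, 5, 3 and 6 excitatory and 4, 8, 7, 4 and 7 axon genes rose, and 3, 1, 8, 1 and 3 axon genes fell. For neuropeptide genes the counts were 2, 2, 3, 1 and 2 higher and 3, 2, 4, 3 and 3 lower.

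Among the 31 lists, the p53 target genes had the largest number of falls. Of 25 tested p53 target genes, 0 rose, 14 fell and 11 did not pass (56.0% called), with a median log2 fold change of −0.94. Cdkn1a, the cell cycle inhibitor p21, was at 34.4 and 27.9 CPM in shAdar1, against 81.7 and 102 CPM in shControl1 (−1.56 ± 0.16 SE, adjusted p = 0.000720), with 30.7 and 24.5 CPM in shControl2. Phlda3, an inhibitor of Akt signalling, was at 7.06 and 9.25 CPM in shAdar1, against 25.8 and 28.4 CPM in shControl1 (−1.73 ± 0.17 SE, adjusted p = 0.000690), with 6.06 and 7.17 CPM in shControl2. Bbc3, the apoptosis factor PUMA, was at 8.97 and 9.55 CPM in shAdar1, against 24.7 and 29.1 CPM in shControl1 (−1.54 ± 0.19 SE, adjusted p = 0.00146), with 8.30 and 7.76 CPM in shControl2. In the 3 genes the shControl2 samples lay close to shAdar1, and none passed against shControl2. Of the whole list 3 rose and 3 fell against shControl2, with a median of 0.14, and 2 fell against both, Trp53inp1 (−1.24 ± 0.19 SE, adjusted p = 0.00340) and Ccng1 (−0.94 ± 0.17 SE, adjusted p = 0.00669), named after their values were seen. Under these alternatives 10, 10, 10, 9 and 11 fell against shControl1. Immediate early genes, which neuronal firing induces, had the lowest median of the lists. Of 22 tested immediate early genes, 0 rose, 3 fell and 19 did not pass (13.6% called), with a median log2 fold change of −1.49. Bdnf, a neurotrophin, was at 14.8 and 10.5 CPM in shAdar1, against 25.2 and 88.8 CPM in shControl1 (−2.18 ± 0.56 SE, adjusted p = 0.0298), Nr4a2, a nuclear receptor, at 13.6 and 16.52 CPM in shAdar1, against 32.3 and 95.2 CPM in shControl1 (−2.08 ± 0.45 SE, adjusted p = 0.0145), and Dusp6, a phosphatase of ERK, at 24.7 and 27.8 CPM in shAdar1, against 38.7 and 104 CPM in shControl1 (−1.44 ± 0.35 SE, adjusted p = 0.0246). In all 3 genes shControl1 replicate 2 was far above the other samples. Without it the median of the list was −0.24, against shControl2 it was 0.24, and in the 5 alternative fits 0, 0, 11, 0 and 2 members fell. Calls were lost for Bdnf without shAdar1 replicate 1, shAdar1 replicate 2 or shControl1 replicate 2 (−2.47 to −1.001, adjusted p 0.0848 to 0.259), for Nr4a2 without shAdar1 replicate 1, shAdar1 replicate 2 or shControl1 replicate 2 (−2.23 to −1.098, adjusted p 0.0677 to 0.0903) and for Dusp6 without shAdar1 replicate 1, shAdar1 replicate 2 or shControl1 replicate 2 (−1.53 to −0.56, adjusted p 0.0943 to 0.108). Of 30 tested genes of the integrated stress and unfolded protein responses, 3 rose, 3 fell and 24 did not pass (20% called), with a median log2 fold change of −0.17, and in the 5 alternative fits 2, 1, 2, 0 and 2 rose and 6, 1, 2, 1 and 2 fell.

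Some glial genes and genes of dividing cells rose against shControl1, with higher levels in shAdar1 replicate 2. Of 25 tested astrocyte and radial glia genes, 9 rose, 0 fell and 16 did not pass (36.0% called), with a median log2 fold change of 0.80. Slc1a2, the glutamate transporter GLT-1, was at 545 and 595 CPM in shAdar1, against 335 and 252 CPM in shControl1 (0.96 ± 0.15 SE, adjusted p = 0.00355), with 959 and 1149 CPM in shControl2. Aldoc, an aldolase, was at 67.5 and 131 CPM in shAdar1, against 23.5 and 17.0 CPM in shControl1 (2.29 ± 0.42 SE, adjusted p = 0.00717), a call lost without shControl1 replicate 2 (2.08, adjusted p = 0.0750), with 113 and 141 CPM in shControl2. Against shControl2 none of these genes rose and 4 fell, with a median of −0.42. Of 14 tested oligodendrocyte lineage genes, 0 rose, 0 fell and 14 did not pass (0% called), with a median log2 fold change of 1.53. Of 27 tested genes of cycling cells, 6 rose, 0 fell and 21 did not pass (22.2% called), with a median log2 fold change of 1.13. Rrm2, which supplies nucleotides for DNA synthesis, was at 26.2 and 56.7 CPM in shAdar1, against 16.4 and 13.5 CPM in shControl1 (1.48 ± 0.31 SE, adjusted p = 0.0128), a call lost without shAdar1 replicate 2 or shControl1 replicate 2 (0.81 to 1.34, adjusted p 0.0563 to 0.105). With these 5 fits 11, 4, 9, 2 and 7 glial genes and 19, 0, 1, 0 and 2 cycling genes rose. Of 26 tested replication-dependent histone genes, 8 rose, 0 fell and 18 did not pass (30.8% called), with a median log2 fold change of 0.83. Hist2h2aa1 was at 53.7 and 67.8 CPM in shAdar1, against 41.2 and 26.5 CPM in shControl1 (0.85 ± 0.20 SE, adjusted p = 0.0202), a call lost without shAdar1 replicate 2 or shControl1 replicate 2 (0.56 to 0.67, adjusted p 0.109 to 0.131). Against shControl2 21 of the histone genes rose, with a median of 1.36, and none fell against either control. Summed over the list the level was 5464 and 9750.2 TPM in shAdar1, against 5275 and 3484 TPM in shControl1, and the median member was lower in shAdar1 replicate 1 than in replicate 2 by a log2 difference of −0.95. Over the alternative fits 13, 0, 4, 0 and 2 histone genes rose. Histone transcripts of dividing cells lack a poly(A) tail and are retained in these rRNA-depleted libraries. Across the 4 samples the summed glial and cycling levels were, like the histone level, highest in shAdar1 replicate 2 and lowest in shControl1 replicate 2. In shControl2 glial genes summed to 8917 and 9583 TPM, cycling genes to 689 and 691 TPM and histone genes to 3924 and 2894 TPM. In the same order, the sums in shZfr were 8828 and 8293 TPM, 1007 and 949 TPM and 4121 and 4106 TPM. Those in shAdar2 were 1904 and 3951 TPM, 159 and 266 TPM and 6760 and 6387 TPM. The part of glial and dividing cells in the histone counts was not tested.

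Of 11 tested microglial genes, 0 rose, 1 fell and 10 did not pass (9.09% called), with a median log2 fold change of −0.80. Of 16 tested endothelial, mural and fibroblast genes, 3 rose, 0 fell and 13 did not pass (18.8% called), with a median log2 fold change of −0.29, among which Fn1, fibronectin, was at 96.0 and 84.0 CPM in shAdar1, against 37.9 and 50.7 CPM in shControl1 (1.02 ± 0.18 SE, adjusted p = 0.00587). In the 5 alternative fits 0, 1, 0, 0 and 1 microglial genes fell and 1, 1, 1, 1 and 1 vascular genes rose. Of 39 tested signalling genes of the Wnt, BMP, activin and Notch pathways, 12 rose, 4 fell and 23 did not pass (41.0% called), with a median log2 fold change of 0.43. Id2, a BMP target, was at 108 and 130.1 CPM in shAdar1, against 43.8 and 29.4 CPM in shControl1 (1.70 ± 0.18 SE, adjusted p = 0.000874), with 85.1 and 85.6 CPM in shControl2, and Fstl1, a follistatin relative, at 50.0 and 53.5 CPM in shAdar1, against 91.0 and 91.1 CPM in shControl1 (−0.82 ± 0.099 SE, adjusted p = 0.00135), with 57.1 and 65.2 CPM in shControl2. Both genes had non-overlapping groups. Against shControl2 no signalling gene rose and 2 fell, and in the 5 alternative fits 7, 4, 7, 2 and 7 rose and 2, 2, 4, 2 and 4 fell against shControl1.

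Cholesterol genes rose or did not pass. Of 23 tested genes of cholesterol synthesis and uptake, 6 rose, 0 fell and 17 did not pass (26.1% called), with a median log2 fold change of 0.63. Sqle, squalene epoxidase, was at 389 and 249 CPM in shAdar1, against 168 and 140.4 CPM in shControl1 (1.05 ± 0.26 SE, adjusted p = 0.0239), a call lost without shAdar1 replicate 1, shControl1 replicate 1 or shControl1 replicate 2 (0.67 to 1.18, adjusted p 0.0665 to 0.164). Tm7sf2, a sterol reductase, was at 21.4 and 16.6 CPM in shAdar1, against 11.2 and 8.08 CPM in shControl1 (0.98 ± 0.21 SE, adjusted p = 0.0156), a call lost without shAdar1 replicate 1 or shControl1 replicate 2 (0.76 to 0.76, adjusted p 0.0946 to 0.117). It rose against shControl2 too (1.19 ± 0.22 SE, adjusted p = 0.00336). For both genes shAdar1 replicate 1 was the highest sample. Across the alternative fits 0, 11, 3, 0 and 3 genes of the list rose. Of 48 tested genes of splicing factors and neuronal RNA-binding proteins, 15 rose, 1 fell and 32 did not pass (33.3% called), with a median log2 fold change of 0.33. Rbm3, a cold-inducible RNA-binding protein, was at 157 and 147 CPM in shAdar1, against 66.6 and 62.8 CPM in shControl1 (1.23 ± 0.093 SE, adjusted p = 0.000341), with 144 and 145 CPM in shControl2. Rbfox2, a splicing regulator, was at 763 and 689 CPM in shAdar1, against 423 and 423 CPM in shControl1 (0.78 ± 0.10 SE, adjusted p = 0.00177), with 661 and 615 CPM in shControl2. In both, the shControl2 samples were nearer to shAdar1 than to shControl1. Against shControl2 10 rose and 8 fell, and in the 5 alternative fits 5, 8, 8, 4 and 8 rose and 0, 0, 0, 0 and 0 fell against shControl1. Of 16 tested nuclear retained and paraspeckle genes, 3 rose, 2 fell and 11 did not pass (31.2% called), with a median log2 fold change of 0.26. Miat, a nuclear noncoding RNA of neurons, was at 1035 and 926 CPM in shAdar1, against 327 and 479 CPM in shControl1 (1.28 ± 0.17 SE, adjusted p = 0.00190), with 933 and 893 CPM in shControl2. Of 31 tested lysosomal and autophagy genes, 1 rose, 6 fell and 24 did not pass (22.6% called), with a median log2 fold change of −0.19. The rise was that of Psap, for which, as given above, shControl1 was the lowest of the 5 groups. Ctsd, a lysosomal protease, was at 95.5 and 111 CPM in shAdar1, against 147 and 146 CPM in shControl1 (−0.51 ± 0.12 SE, adjusted p = 0.0207), a call lost without shAdar1 replicate 1, shControl1 replicate 1 or shControl1 replicate 2 (−0.51 to −0.42, adjusted p 0.0767 to 0.113). Under these alternatives 0, 3, 3, 0 and 3 lysosomal genes fell and 2, 2, 1, 1 and 1 nuclear retained genes rose, with 1, 0, 2, 0 and 1 of these falling.

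Metallothionein genes, whose products bind zinc and copper, rose. Of 19 tested genes of iron, heme and metal handling, 3 rose, 3 fell and 13 did not pass (31.6% called), with a median log2 fold change of −0.11. The 3 that rose were Mt1, Mt2 and Mt3. Mt1, chosen after its values were seen, was at 42.2 and 52.5 CPM in shAdar1, against 25.5 and 18.9 CPM in shControl1 (1.095 ± 0.26 SE, adjusted p = 0.0227), with 26.7 and 19.1 CPM in shControl2 (1.05 ± 0.26 SE, adjusted p = 0.0142). Mt2 was at 46.9 and 44.4 CPM in shAdar1, against 20.7 and 15.8 CPM in shControl1 (1.32 ± 0.24 SE, adjusted p = 0.00727), with 31.7 and 30.3 CPM in shControl2 (0.56 ± 0.24 SE, adjusted p = 0.0993). Mt3, the form typical of brain, was at 17.4 and 41.0 CPM in shAdar1, against 12.7 and 7.54 CPM in shControl1 (1.54 ± 0.37 SE, adjusted p = 0.0235), with 11.8 and 9.31 CPM in shControl2 (1.47 ± 0.37 SE, adjusted p = 0.0147). The shAdar1 values lay above all control values in the 3 genes, and in Mt3 replicate 2 was far above replicate 1. The higher level of Mt3 was not particular to shAdar1. It was at 29.1 and 25.7 CPM in shAdar2, also above all control values, and at 8.75 and 7.19 CPM in shZfr. Leaving out 1 sample ended the calls of Mt1 without shAdar1 replicate 2 or shControl1 replicate 2 (0.89 to 0.93, adjusted p 0.124 to 0.165), Mt2 without shControl1 replicate 2 (1.14, adjusted p = 0.0713) and Mt3 without shAdar1 replicate 2 or shControl1 replicate 2 (0.78 to 1.204, adjusted p 0.165 to 0.170). With these 5 fits 3, 1, 3, 0 and 3 members of the list rose. Astrocyte and radial glia markers, which summed to 4331 and 8445 TPM in shAdar1, against 3589 and 2796 TPM in shControl1, shared with Mt3 the highest value in shAdar1 replicate 2, and their part in these changes was not tested. Slc30a3, the zinc transporter of synaptic vesicles, fell to 0.638 and 0.553 CPM in shAdar1, against 3.38 and 3.38 CPM in shControl1 (−2.50 ± 0.42 SE, adjusted p = 0.00511), with 0.954 and 0.731 CPM in shControl2.

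The metallothionein promoters are shown because the 3 genes lie together on chromosome 8 and rose against shControl1. Metal response elements, bound by the zinc sensor MTF-1, have the core TGCACNC or TGCGCNC, and capitals mark each match on either strand, in the 250 bases before and 50 bases after the RefSeq start (GRCm38.p6, plus strand, 5′ to 3′). Of 27025 promoters, 1 a gene, 25.6% hold a match. The Mt1 window, chr8:94178839-94179138, has 3, that of Mt2, chr8:94172368-94172667, has 4, and that of Mt3, chr8:94152357-94152656, has 1.
Mt1: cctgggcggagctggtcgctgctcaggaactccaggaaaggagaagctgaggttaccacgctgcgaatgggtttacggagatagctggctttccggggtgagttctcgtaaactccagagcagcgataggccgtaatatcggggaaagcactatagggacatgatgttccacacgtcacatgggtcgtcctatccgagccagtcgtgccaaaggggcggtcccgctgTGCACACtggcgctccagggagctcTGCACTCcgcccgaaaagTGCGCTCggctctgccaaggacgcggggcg
Mt2: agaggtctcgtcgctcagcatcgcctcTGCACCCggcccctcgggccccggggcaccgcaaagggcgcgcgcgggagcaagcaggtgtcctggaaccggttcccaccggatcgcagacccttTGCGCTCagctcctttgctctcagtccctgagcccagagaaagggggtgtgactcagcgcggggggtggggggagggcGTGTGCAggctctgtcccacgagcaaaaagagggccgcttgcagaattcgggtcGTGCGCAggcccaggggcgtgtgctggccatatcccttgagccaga
Mt3: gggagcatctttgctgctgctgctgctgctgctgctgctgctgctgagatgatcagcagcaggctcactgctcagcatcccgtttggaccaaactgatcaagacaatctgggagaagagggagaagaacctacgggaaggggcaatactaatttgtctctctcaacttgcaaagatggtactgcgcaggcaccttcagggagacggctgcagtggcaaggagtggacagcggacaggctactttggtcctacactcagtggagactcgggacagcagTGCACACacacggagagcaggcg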

How the data were processed

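Total RNA from cultured neurons, depleted of ribosomal RNA, was sequenced and deposited as gene and editing-site tables. Per the file headers, the gene tables hold the authors' expected counts and TPM, in the format RSEM writes, and the site tables hold the authors' counts of A and G reads with the editing level as a fraction. The level equalled G over A plus G within 0.0005 in each library. The submitters' processing notes name, without roles, RSEM 1.2.30, STAR 2.5.4b, DESeq2 1.20.0, Trim Galore 0.4.5, SAMtools 1.4 and the build mm9, and neither they nor the labels state how sites were chosen. The 3 technical libraries of 1 shAdar2 replicate were summed.

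Expected counts were rounded, filtered with filterByExpr, scaled by TMM and tested with edgeR 4.0.16 (quasi-likelihood, Benjamini-Hochberg, R 4.3.3) over all 10 samples, adjusted p under 0.05. CPM values are TMM-scaled. Sites with 20 reads in each of the 4 samples and 5 edited and 5 unedited reads in all were tested as edited against unedited reads, with library as a term. Both tests were also run on simulated data, with outcomes not reported here. DESeq2 1.42.0 was an alternative.

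Genes named were the 4 of the editing family and targets, the 10 largest changes each way called against both controls without overlap, the 5 largest each way against shControl1, and called members of 31 lists with lowest p. A few genes under this rule are not reported here. Sites named were the 8 largest falls, each rise, 6 highly edited sites with the smallest change, the 5 deepest and 5 clusters. Members and lists were chosen with earlier results of these data known. Replicates are biological per the design text, which does not say whether from separate dissections. Sites were not assigned to genes, since mm9 annotation was not used here.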

Additional observations from a re-analysis of the deposited data

How the results depend on the processing

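The lower mean editing level over member sites kept its direction under every alternative run, with differences of −4.10 to −1.15 points. Adar stayed lower in every alternative, and with both control hairpins pooled it did not pass (−1.497, adjusted p = 0.0627). Counts of genes higher and lower moved most with the control: 3 and 2 with both hairpins pooled, and 2860 and 2049 against shControl2. They were 910 and 783 with the 4 samples alone and 811 and 613 without shZfr, and 493 to 917 and 291 to 640 with 1 sample left out. With the replicate number as a block over the 4 samples they were 807 and 605. The labels do not say that the numbers pair the samples, the replicate deviations correlated at r = −0.12 over genes and −0.084 over sites, and the crossed pairing, added after seeing the data, gave 1469 and 1216. DESeq2, other size factors, no filter and leaving out Rn45s kept both counts within 1.5 times.

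Sites lower numbered 720 at 10 reads a sample, 109 at 40, 134 with no minimum of edited reads, 135 against shControl2 and 35 to 170 with 1 sample left out. Sites higher numbered 0 with no minimum of edited reads, 1 with the replicate block and 0 in each fit with 1 sample left out. Clusters lower numbered 472 at 10 reads, 51 at 40 and 81 against shControl2. Clusters higher numbered 0 at 40 reads, 3 against shControl2, 0 with sites joined over 50 kb and 0 to 1 with 1 sample left out. Different depth limits change how many sites are tested; for the other alternatives the cause was not tested.

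Against shControl2 the sign turned for Zfr −0.58, Wif1 0.93, Abca8a −0.37, Adamts18 −1.097, Azin1 −0.65, Tap1 0.024, Ube2l6 0.46, Cmpk2 −0.23, Cnih3 −0.11, Grm5 −1.096, Gabrg1 −0.62, Kcnh7 0.36, Slc17a6 −0.69, Cplx2 −0.78, Lrrtm1 −0.096, Nr4a2 0.46, Bdnf 0.21, Lmo4 −0.017, Aldoc −0.35, Slc1a2 −0.89, Ctsd 0.030, Ntrk3 −0.23, Cdkn1a 0.18, Phlda3 0.31, Bbc3 0.21 and Icam1 0.59, and the site chr3:80496208 changed by 3.29 points. With both hairpins pooled it turned for Adamts18 −0.19, Azin1 −0.026, Grm5 −0.48, Cplx2 −0.18 and Slc1a2 −0.24. The median tested site had 39 reads a sample, which limits the precision of a single site.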
